A study of Homo sapiens with 2 samples.

Results

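The 39 genes described here are genes of DNA replication and S phase. They were chosen by symbol, and the deposited counts hold all 39 among 33538 genes. They comprise 8 genes of helicase loading and of the active helicase (MCM2, MCM4, MCM5, MCM6, CDC6, CDC45, GINS2 and the inhibitor GMNN) and 10 of the sliding clamp, the polymerases and the fork (PCNA, RFC2, POLA1, PRIM1, POLD3, FEN1, RPA2, CLSPN, TIPIN and DSCC1). A further 3 supply nucleotides (RRM1, RRM2 and TYMS), 6 act in repair (UNG, EXO1, BLM, BRIP1, RAD51AP1 and USP1), and 9 act in chromatin or histone supply (NASP, HELLS, CDCA7, CHAF1B, SLBP, CASP8AP2, ATAD2, WDR76 and UBR7). The last 3 act at S-phase entry or in turnover (CCNE2, DTL and E2F8). They lie on 19 different chromosomes.

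DNA replication starts when CDC6 and CDT1 load the MCM helicase on chromatin in G1. CDC45 and the GINS complex then turn the helicase on, and polymerases, the PCNA clamp and its loader RFC copy the strands while chaperones deliver new histones. Many of these genes are transcribed by E2F factors at the passage from G1 to S. Human embryonic stem cells (hESCs) divide fast with a short G1, so a large share of them is in S phase at any time.

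The study asked how hESCs commit to differentiation under BMP4, a growth factor that turns them towards amnion-, trophectoderm- and mesoderm-type cells. Both libraries came from H1, an established hESC line, grown in mTeSR1 medium on growth factor-reduced Matrigel and given 50 ng/ml BMP4 for 48 h. The library labelled WT was made from H1 itself, and the library labelled GATA3 KO from KO-GATA3-06, a single clone that is GATA3-/- (mutated with Cas9 in the gene of this transcription factor), derived from a line of H1 that is itself a clone with an inducible Cas9 cassette. Clone, cassette and genotype thus cannot be told apart, and each group is 1 library with no replicate, so no test was made and every interval below covers counting error only. The treatment text of the WT library gives an exposure of 1 h, while its title and recorded duration give 48 h.

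GATA3 transcripts do not check the labels, since a 3′ count does not see whether a coding sequence is intact. GATA3 stood at 12.7 counts per 1000000 UMIs (CPM; a UMI, or unique molecular identifier, stands for 1 captured RNA molecule) in the library labelled WT and 10.9 CPM in the library labelled GATA3 KO, and every direction below rests on the labels. After the study's limits on cells, 2519 of 3802 and 4450 of 6221 cells were kept, with a median of 44415 and 43131.5 UMIs per cell. The libraries share 8 cell barcodes. The 6 pluripotency markers summed to 2246 and 3048 CPM, with SOX2, POU5F1 and LIN28A higher and NANOG, TDGF1 and DPPA4 lower with the label GATA3 KO, and the 6 primitive streak markers to 318 and 13.4 CPM with the label WT and the label GATA3 KO, respectively, and the libraries thus differ in the kinds of cells they hold. The 6 amnion or trophectoderm markers summed to 51.7 and 80.3 CPM. Of these, GATA3 and ISL1 were lower and the others higher with the label GATA3 KO. The 5 endoderm markers summed to 21.2 and 0.827 CPM. The 5 neural markers summed to 37.6 and 91.8 CPM, nearly all of it from IRX2 (35.98 and 87.57 CPM). The 5 fibroblast markers summed to 155 and 297 CPM, where LUM and DCN had 0 to 2 UMIs in each library. THY1 (73.8 and 214 CPM) and COL1A1 were higher and COL1A2 lower with the label GATA3 KO. The neural and fibroblast sums thus rest on few genes.

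Promoter sequence is shown first, because E2F-type letters stood in a larger share of these promoters than of promoters at large and played no part in choosing the genes. RefSeq promoters (GRCh38.p14, 250 bases before to 50 after the start) were at hand for 30 of the 39 genes, and not for MCM4, MCM5, RPA2, WDR76, CCNE2, POLD3, ATAD2, DSCC1 and E2F8. The letters searched on both strands were TTTCCCGC, TTTGGCGC, TTTCGCGC and TTTGCCGC. At least 1 of them stood in 14 of the 30 promoters (46.7%), against 3.33% of 27305 promoters in all, 6.04% of the promoters of genes tested below, and 32.6% of those of 43 other replication genes. The 14 were CASP8AP2, CDC6, CDCA7, CLSPN, DTL, EXO1, GINS2, HELLS, MCM2, MCM6, PCNA, POLA1, TYMS and UBR7. Capitals mark the letters in 5 of these promoters below, each a stretch before the start, and in DTL and HELLS the letters end 1 base before it. The MCM6 stretch (chr2:135876492-135876611, minus strand) has 2 runs, in each of which TTTGGCGC overlaps a TTTCGCGC read on the other strand. The PCNA stretch is chr20:5126644-5126763 (minus strand), the TYMS stretch chr18:657532-657651 (plus strand), the DTL stretch chr1:212035718-212035747 (plus strand) and the HELLS stretch chr10:94545758-94545787 (plus strand).
MCM6: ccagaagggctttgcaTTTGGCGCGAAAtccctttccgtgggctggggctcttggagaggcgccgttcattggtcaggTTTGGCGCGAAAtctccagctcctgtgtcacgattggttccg
PCNA: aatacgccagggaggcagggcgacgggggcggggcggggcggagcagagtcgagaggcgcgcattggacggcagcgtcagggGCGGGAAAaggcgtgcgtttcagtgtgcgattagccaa
TYMS: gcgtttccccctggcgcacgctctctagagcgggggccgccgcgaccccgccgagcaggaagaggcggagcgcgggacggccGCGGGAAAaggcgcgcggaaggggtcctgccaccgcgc
DTL: caatcagagagcgtgacgtcagTTTGGCGC
HELLS: aggtatcgcgagatgacaggatTTTCCCGC

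NASP, the gene with the highest level of the 39, has no E2F-type letters in the window. It holds CCAAT letters, shown in capitals as read from the other strand (chr1:45583824-45583853, plus strand). CCAAT stood in 70.0% of the 30 promoters, 35.7% of all promoters and 69.6% of the promoters of 46 genes of G2 and mitosis (G2/M). Those G2/M promoters often carry the letters TTTGAA, known as the cell cycle homology region (CHR). TTTGAA stood in 67.4% of the 46 G2/M promoters, in 2 of the 30 replication promoters (6.67%) and in 15.4% of all promoters, whereas E2F-type letters stood in 6.52% of the G2/M promoters. PLK1 (chr16:23678847-23678876, plus strand) and CENPA (chr2:26786025-26786054, plus strand), a mitotic kinase and the centromeric histone, are shown with their TTTGAA in capitals. E2F-type letters overlapped CCAAT or CHR letters in 0 of the 30 promoters. A match is a description of the sequence and not evidence that a factor binds.
NASP: ggaagttgctgtttATTGGagaagtcgggc
PLK1: tcccagcgccgcgTTTGAAttcggggagga
CENPA: gcggagcgagcgaTTTGAAcgcgagcggcg

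The levels of the 39 genes differed widely. Each UMI counts 1 molecule at its 3′ end, so these levels do not scale with transcript length. NASP, a chaperone that stores histones H3 and H4, led with 655 CPM in the library labelled WT and 1137 CPM in the library labelled GATA3 KO. HELLS, a chromatin remodeller needed for DNA methylation, followed with 225 and 253 CPM, PCNA with 135 and 156 CPM, and TYMS, the thymidylate synthase, with 134 and 146 CPM. At the low end stood CCNE2 (cyclin E2) with 5.93 and 3.42 CPM, E2F8, a repressing E2F, with 8.07 and 6.17 CPM, and the repair helicase BRIP1 with 9.83 and 8.65 CPM. NASP alone held 22.9% of the UMIs of the 39 genes in the library labelled WT and 31.6% in the library labelled GATA3 KO. A sum over the 39 genes is therefore given with and without NASP.

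The summed share of the 39 genes was higher in the library labelled GATA3 KO. It was 0.286% of UMIs (95% interval 0.285 to 0.288) in the library labelled WT and 0.360% (0.359 to 0.361) in the other, a ratio of 1.26 or 0.33 on the log2 scale. Much of that difference was NASP. Without it the shares were 0.221% and 0.247%, a ratio of 1.12 (log2 0.16), whereas NASP alone went from 0.0655% to 0.114% (ratio 1.74). When each gene was scaled to its own mean, so that all 39 count alike, the log2 ratio of the sum was 0.09.

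Among the roles, chromatin and histone supply had a log2 ratio of shares of 0.51 with NASP and -0.023 (-0.039 to -0.0062) for its other 8 genes. Helicase loading and the helicase had 0.31, and clamp, polymerases and fork 0.25. Nucleotide supply stood at 0.10 and repair at 0.05. The S-phase entry and turnover genes were lower, at -0.17. A list of 54 G2/M genes went from 0.492% to 0.534% of UMIs (log2 0.12) and a list of 50 other replication genes from 0.331% to 0.351% (log2 0.08).

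Cell by cell, the middle of the range and both its ends lay higher in the library labelled GATA3 KO, apart from the lowest cell. Each cell was thinned at random to 10000 UMIs, which left 2173 and 4038 cells. The 39 genes gave a median of 28 UMIs per cell (quartiles 22 and 34, range 7 to 58) in the library labelled WT and 35 (29 and 43, range 7 to 77) in the library labelled GATA3 KO. Without NASP the medians were 22 and 24 UMIs, and for NASP alone 6 and 11 UMIs. A median of 15 and 16 of the 39 genes had at least 1 UMI in a thinned cell. No cell in either library was at 0 for the sum. The spread between cells was larger than counting gives, with a variance 2.56 and 3.05 times the mean.

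**Figure D1:**
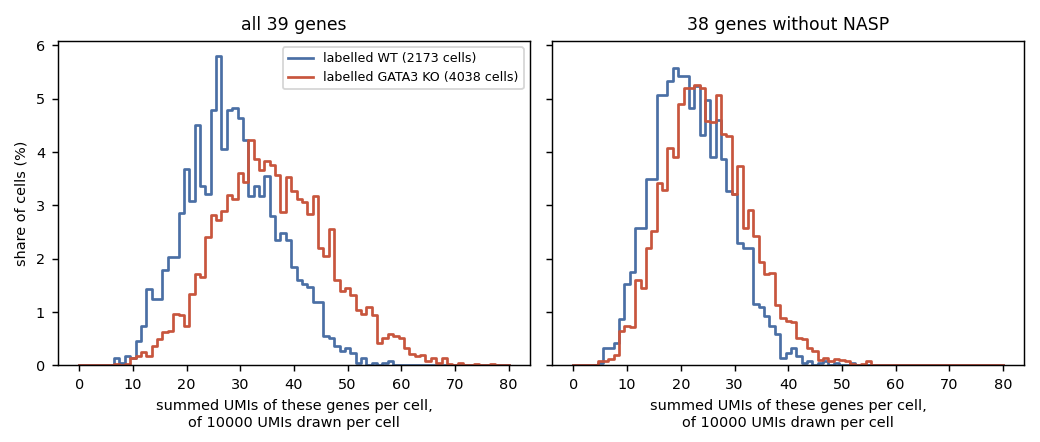
Distribution over cells of the summed UMIs of the 39 genes, and of the 38 genes without NASP, among 10000 UMIs per cell (x axis, UMIs; y axis, percent of cells), for 2173 cells of the library labelled WT and 4038 of the library labelled GATA3 KO. Both distributions have a single peak, with medians of 28 and 35 UMIs for all 39 genes and of 22 and 24 without NASP.

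Per gene, 38 of the 39 passed the filter of a mean of 5 CPM over the libraries, and CCNE2 did not. Ratios are log2 of CPM plus 1, GATA3 KO divided by WT, and a gene is called higher or lower past 0.3 on that scale. Of the 38 genes, 8 were higher, 5 were lower and 25 lay within that fold. Among all 9588 genes tested, 31.2% were higher and 19.7% lower, beside 21.1% and 13.2% of the 38. Their median ratio was 0.16, with 26 above 0 and 12 below, beside a median of 0.07 over all genes tested. With the mean of per-cell CPM in place of summed counts, which gives shallow cells the same weight, 14 were higher. The share of all genes tested past the fold by that measure was not taken, so that count has no background beside it.

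All 4 MCM genes, subunits of the ring-shaped helicase, were above 0. MCM5 was at 77.1 and 115 CPM in the libraries labelled WT and GATA3 KO (log2 ratio 0.57, interval 0.53 to 0.61), and it was the highest of the 4. MCM4 went from 85.5 to 104 CPM (0.29), MCM2 from 23.6 to 28.5 CPM (0.26) and MCM6 from 73.4 to 80.4 CPM (0.13), all within the fold. CDC6, which loads the ring, was higher, at 46.2 and 62.0 CPM (0.42). So was its opponent GMNN (geminin), which holds the loading factor CDT1 inactive, at 99.1 and 128 CPM (0.36). The partners that turn the helicase on changed less, since GINS2 had a ratio of 0.20 and CDC45, at 21.0 and 20.0 CPM, one of -0.07 whose interval reached 0.01.

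Among genes of the clamp and fork, RFC2 of the clamp loader was at 59.4 and 84.7 CPM (0.50), POLD3 of polymerase delta at 29.3 and 41.0 CPM (0.47) and PRIM1, the catalytic primase subunit, at 36.4 and 50.7 CPM (0.47). These were the 3 called higher. The flap nuclease FEN1 sat just inside the fold, at 74.0 and 91.3 CPM (0.299, interval 0.26 to 0.34), and CLSPN, a fork checkpoint mediator, was at 85.5 and 105 CPM (0.29). PCNA had a ratio of 0.21, the single-strand binding subunit RPA2 0.18, the catalytic polymerase alpha subunit POLA1 0.16 and the fork protection gene TIPIN 0.02. DSCC1, part of an alternative clamp loader used in cohesion, went the other way, from 49.9 to 40.4 CPM (-0.297, interval -0.35 to -0.25), also just inside the fold.

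The nucleotide genes all lay within the fold. RRM1 and RRM2, the subunits of ribonucleotide reductase, had ratios of 0.20 and -0.04, and TYMS 0.12. Of the repair genes, USP1, which removes ubiquitin from PCNA, had 0.26, the helicase BLM 0.15, RAD51AP1 0.02 and the uracil glycosylase UNG -0.05. EXO1, an exonuclease of mismatch repair, was lower, at 13.2 and 9.72 CPM (-0.40), and BRIP1 lay at -0.17.

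Chromatin and histone genes held both ends of the range. NASP had the largest ratio of the 38 (0.80, interval 0.78 to 0.81), and 94.4% of all genes tested had a smaller one. CHAF1B, a subunit of the chromatin assembly factor, was at 11.7 and 15.4 CPM (0.37). CDCA7, which recruits HELLS to nucleosomes, was lowest of all, at 61.5 and 42.5 CPM (-0.52), while HELLS itself had a ratio of 0.17. ATAD2, a chromatin ATPase, was at 33.0 and 24.3 CPM (-0.43) and WDR76 at 21.7 and 16.1 CPM (-0.41). The histone messenger factors diverged, with CASP8AP2 at 0.29 and SLBP, which binds the histone stem loop, at 84.1 and 72.3 CPM (-0.21), and the histone ubiquitin ligase UBR7 had 0.10.

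Of the entry and turnover genes, E2F8 was lower (-0.34), and DTL, the adaptor that sends CDT1 to degradation on chromatin, was at 33.7 and 32.8 CPM (-0.04). CCNE2, outside the filter, had a ratio of -0.65. FEN1, UNG, PRIM1, UBR7 and CHAF1B overlap on the same strand a gene that is also in the count table, which can affect their counts. Of the 39, 9 have pseudogenes named after them.

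**Figure D2:**
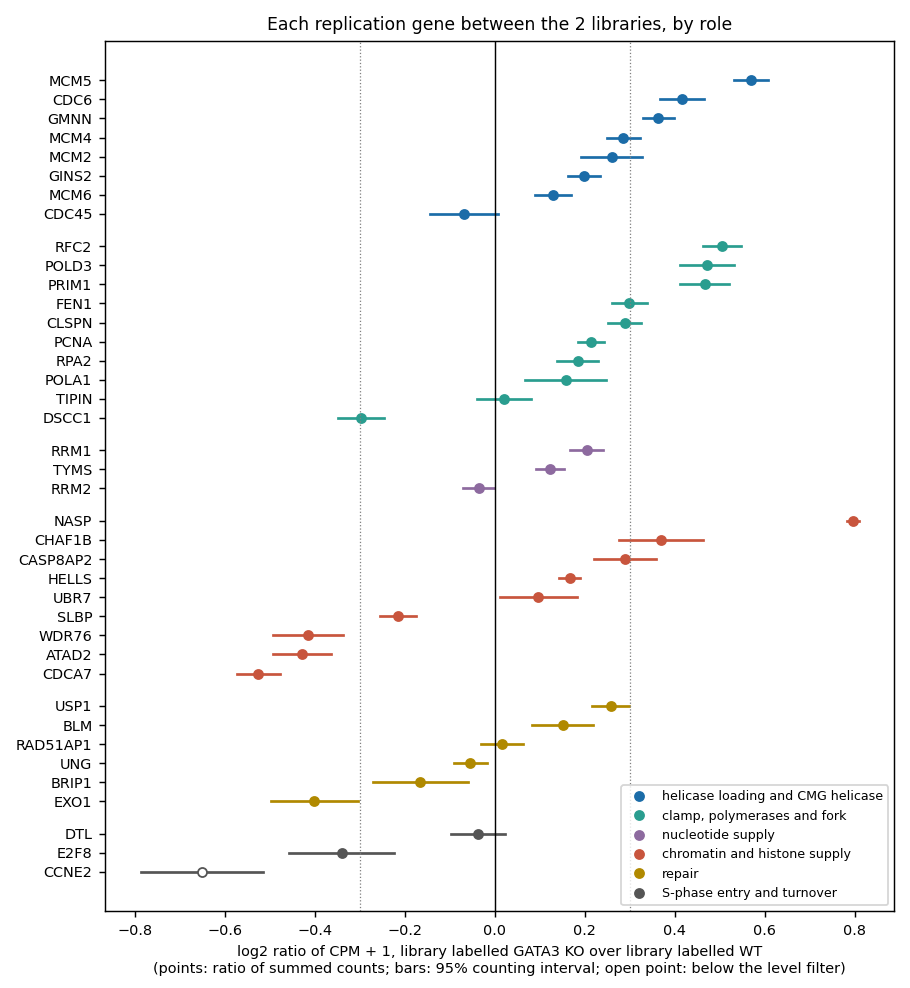
Log2 ratio of CPM plus 1, library labelled GATA3 KO over library labelled WT, for each of the 39 genes grouped by role, with bars for the 95% counting interval and dashed lines at the fold of 0.3. NASP stands highest at 0.80, and CDCA7 is lowest (-0.52) among the 38 genes past the filter.

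The ratio between the libraries moved with base composition. Over 9572 genes it rose with the G and C content of the longest annotated transcript (Spearman's rho 0.54 across genes, which are not independent), and its median went from -0.26 in the lowest of 10 equal groups of genes by content to 0.49 in the highest. Over the 38 replication genes rho was 0.35. Their median content was 43.8%, against 46.9% for all genes tested, so as a set they sat slightly on the side where ratios were lower. The part of base composition in the ratios was not tested, but each ratio can be read less the median of its own group.

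Less that median, 9 of the 38 were higher and 5 lower, where 18.5% and 21.1% of 9572 genes were, and the median over the 38 was 0.14. NASP (0.77), POLD3 (0.54), PRIM1 (0.54), GMNN (0.44) and CDC6 (0.39) were higher either way. CASP8AP2 (0.55), USP1 (0.45), CLSPN (0.36) and HELLS (0.35), of low G and C content, joined them. MCM5 (0.12), RFC2 (0.297) and CHAF1B (0.25) were then within the fold. On the lower side CDCA7 (-0.43), E2F8 (-0.36), EXO1 (-0.33) and WDR76 (-0.32) were lower either way, SLBP (-0.33) joined, and ATAD2 (-0.24) left. The ratio of the summed share was 0.32 and, without NASP, 0.16.

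Other genes of replication and of the cell cycle, listed by function, were mixed as well. Of 49 other replication genes past the filter, 17 were higher and 5 lower (median 0.15), and 16 and 6 less the median of like base composition. CDT1, the loading factor, had 33.6 and 64.5 CPM (0.92, or 0.43 less that median), the thymidine kinase TK1 a ratio of 0.88 (0.38) and the histone chaperone ASF1B one of 0.83 (0.49). DUT, the dUTPase, was lowest at 578 and 327 CPM (-0.82, or -0.75), followed by the nuclease-helicase DNA2 (-0.44) and RPA3 (-0.39). UHRF1, which reads hemimethylated DNA, had -0.13 (-0.47 less the median).

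Of 27 regulators of the passage from G1 to S, 9 were higher and 6 lower, but 3 and 7 less the median of like base composition. Among those of at least 20 CPM, CDK4 (0.65), E2F4 (0.54) and CCND1 (0.45) were the highest, and CCND2 (-0.53), FBXO5 (-0.36) and E2F3 (-0.26) the lowest. CCNE1, cyclin E1, had a ratio of -0.24 and CCNA2 one of -0.11. E2F1 had 0.16 (-0.33 less the median), CDKN1A -0.28, CDKN1B -0.49 and CDKN1C 0.35. Of 54 G2/M genes 20 were higher and 8 lower (18 and 5 less the median), and among those of at least 20 CPM PLK1 (0.99), TPX2 (0.86) and RANGAP1 (0.81) were highest and CDK1 (-0.74), CENPA (-0.73) and LBR (-0.63) lowest.

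Subunits of 1 complex had unlike ratios. These complexes were picked after values had been seen. All 6 subunits of the MCM ring were above 0 (0.13 to 0.57), although less the base composition median they ran from -0.19 to 0.33. In the RFC clamp loader RFC2 stood at 0.50 and RFC1 at 0.11, while RFC3, RFC4 and RFC5 were at -0.25, -0.30 and -0.14, and less that median the order from RFC1 to RFC5 was 0.20, 0.297, -0.06, -0.32 and -0.16. RPA2 stood at 0.18 and RPA3 at -0.39 (0.16 and -0.41 less the median), and RPA1 at 0.10. In polymerase alpha-primase POLA2 (0.73) and PRIM1 (0.47) were higher and PRIM2 (-0.34) was lower, and less the median POLA2 (0.61) and PRIM1 (0.54) were higher and PRIM2 (-0.26) within the fold. In the GINS complex GINS4 (0.80) and GINS3 (0.66) were higher, against -0.14 for GINS1, or 0.68, 0.73 and 0.05 less the median. All 3 subunits of polymerase delta were above 0, POLD2 at 0.72, POLD3 at 0.47 and POLD1 at 0.02, but less the median POLD1 was at -0.47 and POLD2 at 0.27.

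The second comparison was between kinds of cells within a library. Thinned cells were put in a group when they held at least 1 UMI of SOX2 (kept on in pluripotent and neural cells), MIXL1 (primitive streak) or TFAP2A (amnion, trophectoderm and surface ectoderm), and 0 of the other 2. There were 972, 431 and 118 such cells in the library labelled WT and 3052, 21 and 327 in the library labelled GATA3 KO. A single UMI is a weak mark, so each group can hold other cells. The KO group for MIXL1 is too small to read gene by gene, and beside its sums only HELLS is given for it. No group is known to lack these genes, so the background that free RNA would give was not measured. The contrasts with SOX2-positive cells share those cells.

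TFAP2A-positive cells had the lowest summed share in both libraries. With the library labelled WT, the 39 genes made up 0.298% of UMIs (0.296 to 0.299) in SOX2-positive cells, 0.283% (0.281 to 0.285) in MIXL1-positive cells and 0.246% (0.241 to 0.250) in TFAP2A-positive cells. Cells with none of the 3 markers had 0.282% and cells with more than 1 had 0.279%. With the library labelled GATA3 KO the shares were 0.364% (0.363 to 0.365), 0.370% (0.358 to 0.382), 0.325% (0.322 to 0.328), 0.358% and 0.362%. Intervals of TFAP2A-positive cells overlapped those of no other group of their library.

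As log2 ratios to SOX2-positive cells, TFAP2A-positive cells stood at -0.28 (-0.30 to -0.25) in the library labelled WT and -0.16 (-0.18 to -0.15) in the other. NASP carried part of this too, and without it the ratios were -0.18 and -0.08. MIXL1-positive cells were at -0.07 in the library labelled WT and 0.02 (interval -0.02 to 0.07, 21 cells) in the other, and without NASP at -0.03 and 0.10 (0.04 to 0.16). The G2/M share of TFAP2A-positive cells was lower as well in the library labelled WT (-0.16), but not in the library labelled GATA3 KO (0.00, interval -0.01 to 0.01). Where a marker had to have at least 2 UMIs, the ratios of TFAP2A- to SOX2-positive cells were -0.42 and -0.20, and where cells with more than 1 marker counted in each of their groups, -0.15 and -0.073.

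Between the libraries the share was higher in the library labelled GATA3 KO within every group, by 0.29 on the log2 scale in SOX2-positive cells, 0.39 in MIXL1-positive, 0.40 in TFAP2A-positive and 0.34 in cells with none of the 3. Without NASP these were 0.13, 0.25, 0.23 and 0.21. NASP itself was at 721 and 1175 CPM in SOX2-positive cells and 466 and 913 CPM in TFAP2A-positive cells. The libraries also differ in makeup, as 44.7% of the thinned cells labelled WT and 75.6% of those labelled GATA3 KO were positive for SOX2 alone.

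**Figure D3:**
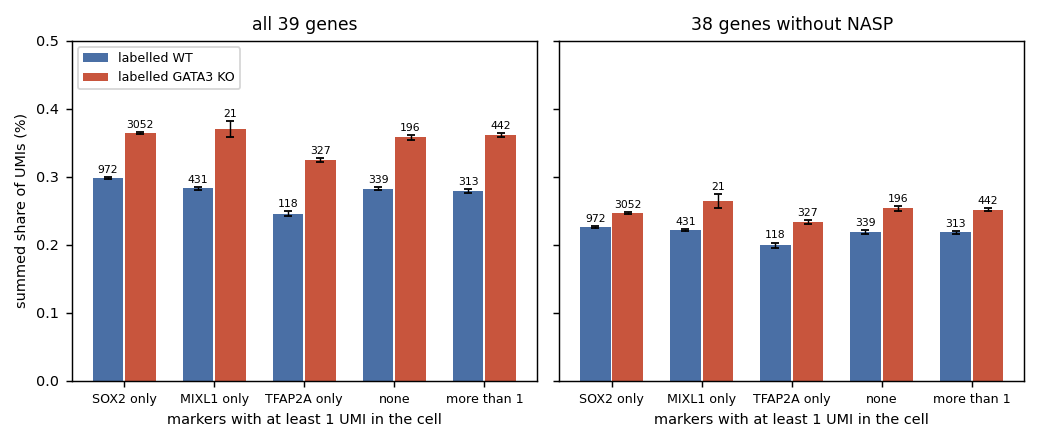
Summed share of the 39 genes, and of the 38 without NASP, in percent of UMIs (y axis, from 0) in cells positive for SOX2, MIXL1 or TFAP2A alone or for none of the 3, in the libraries labelled WT and GATA3 KO, with 95% counting intervals. TFAP2A-positive cells are lowest in both libraries (0.246% and 0.325%), and every group of the library labelled GATA3 KO lies above the same group of the library labelled WT.

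Gene by gene, the difference between TFAP2A- and SOX2-positive cells was uneven. In WT-labelled cells 3 of 38 genes were higher and 13 lower past the fold, beside 13.4% and 31.1% of all genes tested. In KO-labelled cells 5 were higher and 9 lower, beside 16.2% and 26.1%. The counts make 7.89% and 34.2% of the 38 genes labelled WT and 13.2% and 23.7% labelled GATA3 KO, near those backgrounds. The sign was the same in both libraries for 33 of the 38 genes (24 below 0 and 9 above), which is 86.8%, beside 80.0% of all genes tested. The 9 genes lower in the library labelled GATA3 KO were all among the 13 lower in the library labelled WT (69.2% of the 13). Over all genes tested, 75.7% of those lower in the library labelled GATA3 KO were also lower in the other, and 63.5% of those lower in the other.

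HELLS had the lowest ratio in each library. It was at 274 CPM in SOX2-positive and 162 CPM in TFAP2A-positive cells labelled WT (-0.76, interval -0.86 to -0.65), and at 271 and 148 CPM in those labelled GATA3 KO (-0.87, -0.93 to -0.81). Between the libraries, the ratio of HELLS was -0.02 (-0.05 to 0.01) in SOX2-positive and -0.13 in TFAP2A-positive cells, whereas it was 0.10 (0.01 to 0.18) in cells with none of the 3 markers, 0.33 in MIXL1-positive cells (21 of them labelled GATA3 KO) and 0.17 over all kept cells. In MIXL1-positive cells labelled WT it was at 174 CPM (-0.65).

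NASP had -0.63 in the library labelled WT, next to HELLS, and -0.36 in the library labelled GATA3 KO, where MCM2, UNG, MCM4 and PRIM1 were lower. UNG had -0.60 and -0.46, RPA2 -0.56 and -0.31, and DSCC1 -0.50 and -0.34. PRIM1 was at 44.2 and 32.1 CPM (-0.45) and at 53.3 and 39.9 CPM (-0.41). Of the MCM genes MCM6 had -0.45 and -0.31, MCM4 -0.43 and -0.45, MCM2 -0.41 and -0.54, and MCM5 -0.25 and -0.23. PCNA, by contrast, had -0.23 and -0.12, GINS2 -0.12 and -0.12, and FEN1 and RFC2 lay between -0.09 and 0.00.

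SLBP went the other way and was the 1 gene higher past the fold in both libraries. It was at 79.1 CPM in SOX2-positive and 123 CPM in TFAP2A-positive cells labelled WT (0.63, interval 0.51 to 0.75), and at 63.5 and 118 CPM in those labelled GATA3 KO (0.88, 0.80 to 0.95). TYMS was at 0.31 and 0.28 and RRM2 at 0.19 and 0.30. RRM1, the other subunit of the reductase, was at -0.08 and -0.07. CCNE2 had ratios of 0.88 and 0.65, at 4.91 and 9.85 CPM and at 2.84 and 5.04 CPM, though it did not pass the filter.

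ATAD2 differed more between the libraries, with 29.9 and 35.1 CPM labelled WT (0.22, interval -0.01 to 0.44) and 21.8 and 39.9 CPM labelled GATA3 KO (0.84, 0.72 to 0.97). E2F8 was at -0.21 (-0.70 to 0.26) and 0.46 (0.22 to 0.70), on few UMIs. CHAF1B was at -0.44 and 0.13, and CDCA7 at 0.15 and 0.30. CLSPN was at 83.4 and 69.7 CPM (-0.25, -0.41 to -0.10) and at 102 and 115 CPM (0.17, 0.10 to 0.24), so its intervals lay on opposite sides of 0.

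**Figure D4:**
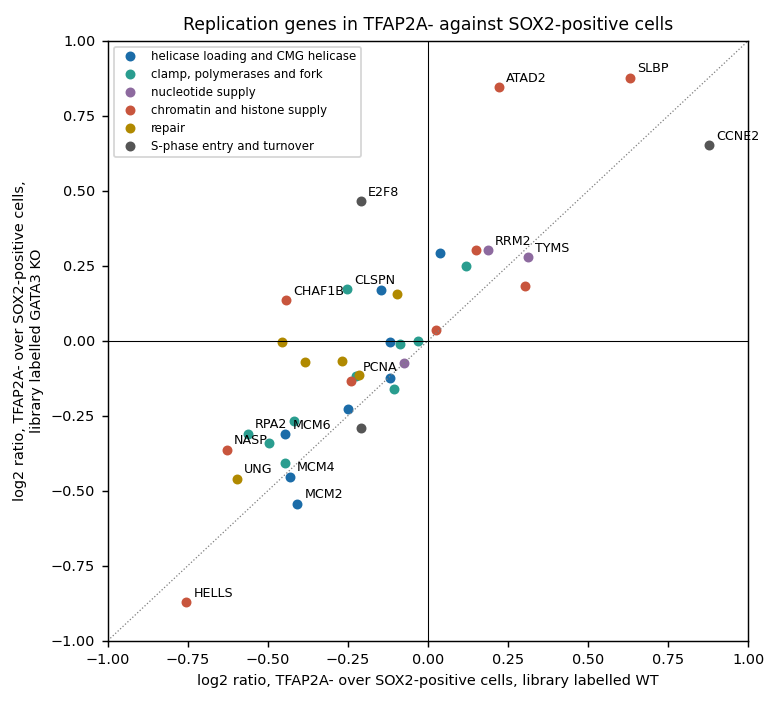
Log2 ratio of TFAP2A-positive over SOX2-positive cells for each gene in the library labelled WT (x axis) and in the library labelled GATA3 KO (y axis). Points are drawn without their counting intervals. HELLS is lowest on both axes (-0.76 and -0.87), SLBP is past 0.3 on both (0.63 and 0.88), and CLSPN lies on opposite sides of 0 (-0.25 and 0.17).

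MIXL1-positive cells labelled WT differed from SOX2-positive cells past the fold in 6 of the 38 genes. E2F8 (0.48) and RRM2 (0.47) were higher, where 9.62% of all genes tested were. PRIM1 (-0.66), HELLS (-0.65), CASP8AP2 (-0.31) and DSCC1 (-0.30) were lower, where 16.1% of all genes tested were. RRM2 stood at 88.7 CPM in SOX2-positive and 123 CPM in MIXL1-positive cells, and PRIM1 at 44.2 and 27.6 CPM. PRIM1, HELLS and DSCC1 were thus lower than in SOX2-positive cells past the fold in both other groups of this library. They were not the only genes below that level in both, since NASP, UNG, RPA2, MCM2 and PCNA were among the others.

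Between the libraries within SOX2-positive cells, 7 of the 38 genes were higher and 6 lower, beside 28.7% and 20.6% of all genes tested. The 7 were NASP (0.70), MCM5 (0.55), RFC2 (0.49), GMNN (0.39), POLD3 (0.39), FEN1 (0.36) and CDC6 (0.32). EXO1 (-0.49), WDR76 (-0.46), ATAD2 (-0.44), CDCA7 (-0.43), DSCC1 (-0.40) and SLBP (-0.31) were the 6. PRIM1 was at 0.27 here, inside the fold, and TYMS was at 0.22.

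Within TFAP2A-positive cells 14 were higher and 1 lower, beside 33.5% and 19.8% of all genes tested. NASP (0.97), CHAF1B (0.86), CLSPN (0.72), CDC6 (0.58), MCM5 (0.57) and RFC2 (0.56) led, and WDR76 (-0.36) was the lower 1. With 118 cells labelled WT the intervals were wide, for example 0.44 to 1.30 for CHAF1B. Base composition moved with these ratios too (rho 0.56 over genes in SOX2-positive and 0.41 in TFAP2A-positive cells), but hardly with those between kinds of cells within a library (-0.04, 0.05 and -0.05).

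The third question was whether the 39 genes go together from cell to cell. For each gene, cells of a library were ranked by the summed UMIs of the other 38 genes after thinning and cut into 3 groups of equal size, so that a gene did not rank its own cells. The groups held about 724 cells labelled WT and 1346 labelled GATA3 KO. Such groups are ranges of a sum, not phases. When ranked on all 39 genes, the sum ran from 7 to 25 UMIs in the lower group labelled WT and from 32 to 58 in the upper, and from 7 to 31 and 40 to 77 in those labelled GATA3 KO. Median depth before thinning was 47190.5 and 46835 UMIs in the lower and upper groups labelled WT, and lower in the upper group labelled GATA3 KO, at 47965, 44542 and 43079 UMIs from the lower to the upper group. The part of depth in the folds below was not tested beyond the thinning that ranked the cells.

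All 38 genes past the filter were higher in the upper group, in both libraries, and 33 and 34 of them past the fold. Of 4581 other genes of at least 20 CPM, 64.8% and 62.2% were above 0 and 10.5% and 11.3% past the fold. The median log2 fold of the 38 genes was 0.59 in each library, beside 0.06 and 0.05 over those other genes. DTL had one of the largest folds, going from 20.5 to 49.6 CPM (1.23, interval 1.11 to 1.36) in the library labelled WT and from 20.4 to 48.8 CPM (1.22, 1.13 to 1.32) in the other. WDR76 had 1.18 and 1.38, EXO1 1.22 and 0.97, CASP8AP2 0.92 and 1.04, and ATAD2 0.90 and 1.02. UNG (0.84 and 0.93), CDC6 (0.87 and 0.85), MCM6 (0.83 and 0.95) and MCM5 (0.78 and 0.82) came next.

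The weakest were RAD51AP1 (0.16 and 0.26), GMNN (0.18 and 0.25), TYMS (0.20 and 0.17), CDCA7 (0.21 and 0.28) and PRIM1 (0.24 and 0.33). GMNN and TYMS have high levels, 93.7 and 126 CPM even in the lower group labelled WT, and their folds were low although their counts were not. HELLS was at 0.56 and 0.52 and PCNA at 0.62 and 0.63. Across the 39 genes the folds in the libraries had Pearson's r of 0.92 and Spearman's rho of 0.93, and the intervals of 38 overlapped.

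NASP went from 555 to 771 CPM labelled WT (0.47) and from 961 to 1322 CPM labelled GATA3 KO (0.46). The difference in NASP between the libraries (0.80) was larger than its fold across the ranked cells of either library, but these are unlike measures. Folds across ranked cells moved with the depth of thinning. Their median over the genes was 0.48 (WT) and 0.52 (GATA3 KO) at 5000 UMIs, and 0.67 and 0.65 at 20000. The part of the replication state of cells in the NASP difference was not tested. The level of NASP in the lower group labelled GATA3 KO lay above that in the upper group labelled WT. That order of these groups was also found, by small margins, for GMNN (117 and 107 CPM), RFC2 (70.9 and 69.5 CPM) and PRIM1 (45.4 and 39.7 CPM), while for CDCA7 the upper group labelled GATA3 KO, at 48.2 CPM, lay below the lower group labelled WT, at 57.8 CPM. Summed UMIs of the other 38 genes and NASP had r of 0.25 over 2173 cells and 0.35 over 4038 cells, in counts too sparse to read more from.

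**Figure D5:**
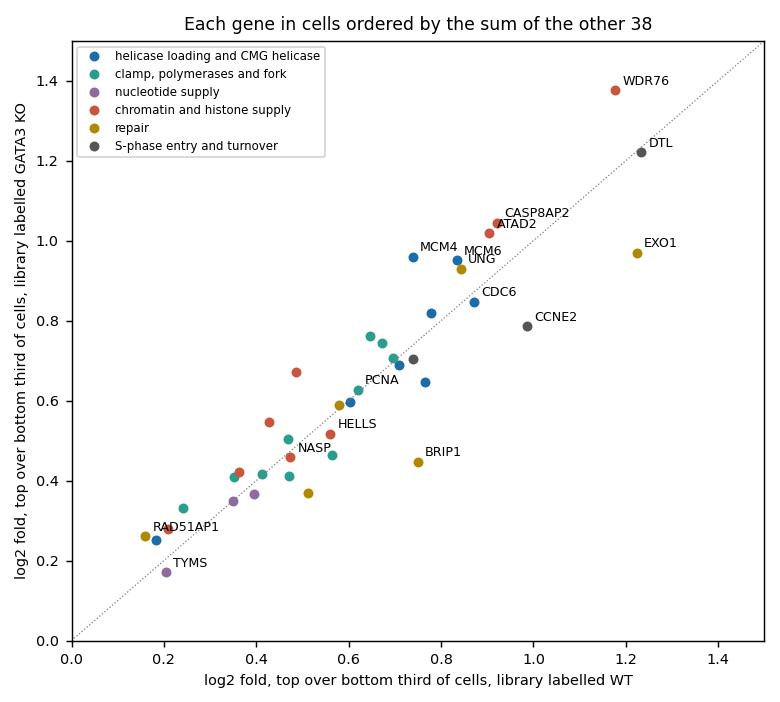
Log2 fold of each gene between the upper and the lower group of cells ranked by the summed UMIs of the other genes. The x axis is the library labelled WT and the y axis the library labelled GATA3 KO, and points are drawn without their counting intervals. All genes lie above 0, from 0.16 for RAD51AP1 to 1.23 for DTL in the library labelled WT.

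The genes with E2F-type letters in the promoters shown above had a median fold of 0.65 and 0.64 (14 genes), and those without 0.48 and 0.46 (16 genes). DTL, EXO1, CASP8AP2, CDC6 and MCM6 are among the former, but so are CDCA7 and TYMS with low folds. The ratio between the libraries was alike in both sets, with medians of 0.16 and 0.18.

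Genes outside the 39 that went the same way in the ranked cells were led by the linker histone HIST1H1D (1.86 and 1.64), FAM111B (1.20 and 1.49), UHRF1 (1.01 and 1.29), CCNE1 (0.97 and 1.09), the mismatch repair gene MSH6 (0.84 and 1.02) and MCM10 (0.90 and 0.82), a factor of helicase activation. BAZ1B, CDC25A, AKAP12 and the nucleolar gene NCL had folds of 0.76 to 0.85. Of 49 other replication genes 44 and 47 were above 0, with medians of 0.29 and 0.32. The opposite end held UBE2C (-1.61 and -1.62), PLK1 (-1.55 and -1.62), ACTC1 (-1.54 and -1.47), AURKA (-1.47 and -1.50) and CENPA (-1.44 and -1.28). All of these but ACTC1, a cardiac actin, are mitotic genes.

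The 54 G2/M genes as a list ran against the replication genes, with a median fold of -0.60 and -0.59 and 4 and 6 of them above 0. Their summed share fell from 0.586% in the lower group to 0.473% and 0.418% in the library labelled WT, and from 0.618% to 0.538% and 0.440% in the other. CCNB1, cyclin B1, went from 254 to 163 CPM and from 270 to 166 CPM, and CCNE1 from 26.0 to 51.8 CPM and from 21.6 to 47.0 CPM. MIXL1 was at 161 CPM in the lower and 110 CPM in the upper group labelled WT, SOX2 at 127 and 165 CPM and TFAP2A at 21.5 and 12.8 CPM. The ranked cells labelled WT thus differ in kind as well. In those labelled GATA3 KO, TFAP2A was at 49.9 CPM in the lower and 31.5 CPM in the upper group. MIXL1 was at 3.27 and 4.60 CPM there, and SOX2 at 361 and 388 CPM with 418 CPM in the middle group. Over cells, the sums of the 39 genes and of the G2/M genes had r of -0.29 (2173 cells) and -0.32 (4038 cells), and -0.35 and -0.41 without NASP.

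Cells high in the summed replication genes were more frequent in the library labelled GATA3 KO. Above 32 UMIs of 10000, the cut that marks the upper part of the library labelled WT, lay 31.5% (29.6 to 33.5) of cells labelled WT and 61.3% (59.7 to 62.8) of those labelled GATA3 KO. Without NASP, above 25 UMIs, the shares were 31.3% and 44.6%. Many cells lay near a cut, with 865 and 1265 within 2 UMIs of one. Cells high in both the replication sum and the G2/M sum (above 52 UMIs) made up 5.43% and 17.9%, or 4.28% and 9.34% without NASP. Above the G2/M cut alone, at any replication sum, lay 33.2% of cells labelled WT and 41.0% of those labelled GATA3 KO. Each sum taken alone thus differed between the libraries as well.

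Cells removed for more than 7500 detected genes had a lower replication share and a higher G2/M share than the cells kept. The 39 genes made up 0.254% and 0.319% of UMIs in these 1012 and 1265 cells, against 0.286% and 0.360% in the kept cells, and the G2/M genes 0.578% and 0.587% against 0.492% and 0.534%. The limit on detected genes therefore takes out cells that differ in the shares of both lists. Whether they differ in other genes as well was not tested. Over all deposited cells the share of the 39 genes was 0.269% and 0.343%.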

How the data were processed

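Single-cell RNA was counted in 2 samples, 1 library labelled WT and 1 labelled GATA3 KO, grouped by their titles. The authors made 10x Genomics 3′ v3 libraries, aligned reads with Cell Ranger 3.0.2 to GRCh38 (per the file headers and the submitters' notes) and deposited raw UMI counts per gene and called cell. The number of barcodes differs from the cell number that the study states. Cells with over 7500 detected genes or over 25% mitochondrial counts were left out, after the study's methods. Depth was 99587274 and 175285931 UMIs in the kept cells.

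Counts were summed over cells and given per 1000000 UMIs with exact Poisson 95% intervals. Ratios are log2 of CPM plus 1, with exact binomial intervals, for genes with a mean of at least 5 CPM. The fold of 0.3 on that scale is a ratio of 1.23. For comparisons between cells, each cell was thinned to 10000 UMIs, which left out 346 and 412 shallower cells, and CPM then used all UMIs of the cells grouped. With 1 library a group, no test, p-value or leave-one-out was possible. The 3′ end is counted, and UMIs of close copies can be lost. Scrublet (scanpy 1.11.5) called 1 and 2 doublets, too few for these numbers of cells, so the 116 and 310 highest scores were removed as an alternative only.

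G and C content came from the longest GENCODE 44 transcript of a gene. Promoters came from RefSeq. Analyses used Python 3.11.15, numpy 2.4.6, scipy 1.17.1, pandas 2.3.3, and R 4.3.3 with edgeR 4.0.16 for TMM scaling of the counts. The scripts were checked on simulated data.

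The 39 genes and the lists were chosen with earlier results of these data known. All 39 are reported. Of the other replication, G1/S and G2/M lists, the 3 highest and 3 lowest ratios among genes of at least 20 CPM are named, with CCNE1, CCNA2, CDKN1A, CDKN1B, CDKN1C, E2F1 and UHRF1. Of genes outside the 39, in a list or not, the 10 highest and 5 lowest between ranked cells in both libraries are named. Subunits of complexes were named after values were seen.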

Additional observations from a re-analysis of the deposited data

Results flagged for a closer look

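CLSPN, the mediator of the fork checkpoint, had a log2 ratio of TFAP2A-positive over SOX2-positive cells of -0.25 in the library labelled WT and of 0.17 in the library labelled GATA3 KO. It was singled out because the counting intervals lay on opposite sides of 0. The difference between the libraries was not tested, since each is 1 library.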

How the results depend on the processing

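The limits are 1 library a group, with no library to leave out, counting intervals only, a clone that cannot be told apart from its genotype, and groups that rest on 1 UMI of a marker. No paired analysis was possible because each group has 1 library and the labels carry no replicate numbers. Over 8 alternatives for each of the 39 ratios between the libraries, 28 genes kept their call and 35 their sign. The ratio less the median of like G and C content was not among these 8. With it MCM5, RFC2, CHAF1B and ATAD2 lost their call, and CASP8AP2, USP1, CLSPN, HELLS and SLBP gained one. In 261 of the 312 comparisons of those 8 alternatives the value stayed within the counting interval, and in 0 a call reversed.

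The ratio of the summed share between the libraries was 0.33. It was 0.35 over all deposited cells and with the mitochondrial limit only, 0.32 with mitochondrial counts left out and with TMM scaling, and 0.39 as the mean of per-cell CPM. It was 0.089 with each gene scaled to its mean, and, among alternatives chosen after seeing the data, 0.16 without NASP, 0.32 less the median of like G and C content and 0.16 with both. The median ratio was 0.24 as the mean of per-cell CPM and 0.089 centred on all genes. Genes higher numbered 14 by per-cell CPM and 1 at a fold of 0.6, and genes lower 2 at a filter of 20 CPM and 0 at a fold of 0.6. The shares of all genes past the fold at these settings were not taken.

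Ratios between groups of cells moved with how cells were grouped and thinned. With overlapping groups TFAP2A-positive cells were at -0.15 (WT) and -0.073 (GATA3 KO), cells with none of the markers at -0.060 (WT), MIXL1-positive cells at -0.070 (GATA3 KO), and GATA3 KO over WT at 0.31 within SOX2- and 0.31 within MIXL1-positive cells. With at least 2 UMIs MIXL1-positive cells were at -0.091 (WT), TFAP2A-positive cells at -0.42 and -0.20, and GATA3 KO over WT at 0.28 within SOX2- and 0.50 within TFAP2A-positive cells. Thinned to 5000 UMIs, MIXL1-positive cells were at -0.093 (WT) and TFAP2A-positive cells at -0.24 and -0.15. At 20000 UMIs cells with none were at -0.10 and -0.055, TFAP2A-positive cells at -0.20 (GATA3 KO), and GATA3 KO over WT at 0.37 within them. Not thinned, cells with none were at -0.23 (WT) and reversed to 0.11 (GATA3 KO), MIXL1- and TFAP2A-positive cells labelled GATA3 KO were at -0.12 and -0.19, and GATA3 KO over WT was 0.28, 0.22, 0.37 and 0.62 within SOX2-, MIXL1-, TFAP2A-positive cells and those with none. Over all deposited cells the ratios were -0.092, -0.34 and -0.11 (WT, MIXL1, TFAP2A, none), -0.023 and -0.066 (GATA3 KO, MIXL1, none), and 0.47 within TFAP2A-positive cells. Without NASP they were -0.026, -0.18 and -0.044 (WT), 0.10, -0.079 and, reversed, 0.042 (GATA3 KO), and 0.13, 0.25, 0.23 and 0.21 between libraries. The causes were not tested.

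The median fold between ranked cells was 0.59 in each library, 0.48 and 0.52 thinned to 5000 UMIs, 0.65 thinned to 20000 (GATA3 KO), and 0.44 and 0.45 with cells cut in 2 groups.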
